A study of Mus musculus with 12 samples.

Results

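The genes described here encode the proteins that build, coat and steer lipoproteins in the liver. They are the apolipoproteins *Apoa1*, *Apoa2*, *Apoa4*, *Apoa5*, *Apob*, *Apoc2*, *Apoc3*, *Apoe* and *Apom* and the transfer protein gene *Mttp*, 10 of the 24532 genes in the count table, chosen by name. All 10 were counted in every library and passed the filter on low counts that left 14038 genes for testing. The livers came from male mice of C57BL/6 background, which entered the feeding at 10 to 12 weeks of age. All of them carried floxed *Ahr* alleles. *Ahr* HKO mice also carried *Alb-Cre*, which is expressed in hepatocytes and deletes exon 2 of *Ahr* there, whereas WT mice were littermates in which no Cre was detected. Other liver cells of *Ahr* HKO mice therefore keep the receptor. Mice of both genotypes received an isocaloric liquid control diet (con) or the Lieber-DeCarli diet with 5% ethanol by volume, providing 36% of calories (EtOH), for 5 weeks. The 4 groups, WT con, WT EtOH, *Ahr* HKO con and *Ahr* HKO EtOH, each held 3 livers, every library coming from a different liver. Poly(A) RNA of whole liver was sequenced, so fewer cells of a type and less RNA per cell cannot be told apart. The comparisons ask whether ethanol shifted these transcripts, and whether deletion of the aryl hydrocarbon receptor (AhR), a ligand-activated transcription factor, from hepatocytes altered their level or their response.

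Hepatocytes secrete triglyceride in very-low-density lipoprotein (VLDL), whose scaffold is apolipoprotein B and whose core is loaded in the endoplasmic reticulum by the microsomal triglyceride transfer protein, the product of *Mttp*. Smaller apolipoproteins exchange between particles in plasma. Some control lipoprotein lipase, some are ligands for uptake receptors, and apolipoprotein A-I forms the backbone of high-density lipoprotein (HDL). Liver is the main source of most of these proteins, while *Apoa4*, *Apob*, *Apoa1* and *Mttp* are also strongly expressed in the intestine.

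*Apoa1*, *Apoc3*, *Apoa4* and *Apoa5* are neighbours within 43.3 kb of chromosome 9, in that order. In the GENCODE annotation of GRCm38, *Apoa1* spans chr9:46228580-46230466, *Apoc3* chr9:46232933-46235636, *Apoa4* chr9:46240696-46243459 and *Apoa5* chr9:46268633-46271919. *Apoc3* lies on the minus strand and the other 3 genes on the plus strand. *Apoc2* (chr7:19671579-19677941) and *Apoe* (chr7:19696109-19699188), both on the minus strand, share a second cluster on chromosome 7. *Apoa2* (chr1:171225054-171226379), *Apob* (chr12:7977648-8016835), *Apom* (chr17:35128997-35132050) and *Mttp* (chr3:138089854-138144968) are located elsewhere. Annotated antisense genes overlap *Apoa4*, *Apoa5* and *Mttp*, and a readthrough transcript of *Apoc4* and *Apoc2* overlaps *Apoc2*. The libraries kept strand, but the strand setting of the counting is not given in the sources used here, so reads of overlapping genes may be included in these counts.

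The genes on which the results turn are 3 of the neighbours on chromosome 9, *Apoa1*, *Apoa4* and *Apoa5*, whose response to ethanol differed between genotypes. The stretches that precede their annotated starts are shown to let their promoters be compared. They are RefSeq promoter sequences of GRCm38.p6 on the plus strand, 5′ to 3′, from chr9:46228380-46228579, chr9:46240594-46240695 and chr9:46268383-46268632, respectively. Capitals mark the TATAA element.
Apoa1: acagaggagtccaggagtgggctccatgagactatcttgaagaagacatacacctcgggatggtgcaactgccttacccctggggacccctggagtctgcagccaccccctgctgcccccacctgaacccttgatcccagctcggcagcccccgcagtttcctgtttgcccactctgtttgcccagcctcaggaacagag
Apoa4: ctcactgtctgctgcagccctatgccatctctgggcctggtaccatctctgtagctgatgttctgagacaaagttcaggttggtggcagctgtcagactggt
Apoa5: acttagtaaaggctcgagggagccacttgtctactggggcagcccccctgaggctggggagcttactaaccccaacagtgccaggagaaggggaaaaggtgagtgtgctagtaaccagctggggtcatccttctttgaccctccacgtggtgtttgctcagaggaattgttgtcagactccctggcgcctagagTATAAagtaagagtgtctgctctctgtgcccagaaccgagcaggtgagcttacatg

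The promoter table matched 9 of the 10 genes by symbol. Within the 250 bases before the RefSeq start, 4 motifs were searched on both strands, none of which overlapped another at a match. RefSeq and GENCODE starts differ for some genes. The *Mttp* window (chr3:138143419-138143668) lies inside the GENCODE gene, and that of *Apom* (chr17:35131802-35132051) almost wholly so. The windows of *Apoa1*, *Apoa4* and *Apob* run past the GENCODE start. The AhR core GCGTG occurred in *Mttp* alone among the 9, at 2 places on the strand opposite to the gene's own, and in 28.2% of all 32851 promoter windows of that length. The nuclear receptor half-site AGGTCA was found in *Apoc2* (14.0% of all windows). TATAA was found in *Apoa2*, *Apoa5* and *Apob* (22.8% of all windows), in *Apoa5* 56 bases before the start. CAAAGTCCA, a core of HNF4 sites, matched none of the 9 windows and 0.384% of all windows. A match describes letters and not binding, and other elements or distant enhancers were not searched.

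Libraries held 46306518 to 74336255 counts. The genes described here took 4.18% to 5.46% of all counts, and albumin (*Alb*), the defining hepatocyte transcript, 4.69% to 9.19%. As a check of the labels, *Ahr* stood, in counts scaled to sequencing depth (CPM), at 18.3 ± 1.79 CPM (SD, n = 3) in WT con, 24.9 ± 5.02 in WT EtOH, 56.7 ± 13.4 in *Ahr* HKO con and 32.9 ± 8.55 in *Ahr* HKO EtOH. It was thus not lower in the libraries labelled *Ahr* HKO, but counts of the whole gene do not separate exon 2 and do not check its deletion. *Cyp1a2*, a known AhR target, stood at 490 ± 114, 1088 ± 112, 154 ± 91.1 and 657 ± 27.6 CPM in the same order, lower in the *Ahr* HKO livers on either diet. Groups are given as labelled. Each liver is a separate mouse, so the spread between replicates includes that between animals. The Kupffer cell markers summed to 337 to 441 CPM in WT con, 299 to 780 in WT EtOH, 296 to 854 in *Ahr* HKO con and 189 to 235 in *Ahr* HKO EtOH. The 5 enterocyte markers summed to 27.8 to 101 CPM over all livers. Of these, *Alpi*, *Lct* and *Cdh17* had at most 3 counts in every library, and *Fabp2*, the single one that passed the filter, was called in no comparison by edgeR, with a WT ethanol response of -0.83 (adjusted P = 0.112) that DESeq2 called. The *Ahr* HKO con livers were uneven in some markers, with cholangiocyte sums of 44.5, 180 and 476 CPM and Kupffer cell sums of 296, 551 and 854 CPM. By *Saa1* and *Alb*, 2 livers of the control diet groups stood apart. WT con liver 1 had 31.5 CPM of the acute phase gene *Saa1* against 2571 and 2696 in the other WT con livers, and *Ahr* HKO con liver 3 had 82130 CPM of *Alb* against 47276 and 48122.

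Per transcript length, the 10 genes covered more than 2 orders of magnitude. In FPKM, the authors' fragment count scaled to transcript length and sequencing depth, the median over the 12 livers was 18053 for *Apoe*, the ligand for remnant uptake, 10477 for *Apoa2*, a structural HDL protein, and 9189 for *Apoa1*. By median FPKM these were the genes ranked 2, 3 and 6 of the whole table. *Apoc3* followed at 2219, *Apoa5* at 644, *Apob* at 300.3, *Apom* at 278, *Apoc2* at 278 and *Apoa4* at 257. *Mttp* was the lowest at 67.9. *Apoa4* had by far the widest span, 93.2 to 1237 FPKM, a ratio of 13.3 between the highest and the lowest liver, whereas the others spanned ratios of 1.63 (*Apoc3*) to 3.54 (*Apoa5*). The order changed with the group. In WT con, *Apoa1* came above *Apoa2* (11210 ± 690 against 8694 ± 506 FPKM), and in WT EtOH below it (5892 ± 1486 against 11791 ± 1055), the livers of the 2 genes not overlapping in either case. *Apoa4* was in place 9 in WT con, where its livers lay below those of *Apoc2*, and was in place 5 in WT EtOH, where its livers overlapped those of *Apoa5*. In *Ahr* HKO EtOH it was again in place 9. In WT con, neighbours in the order from *Apoa5* through *Apom* and *Apob* to *Apoc2* overlapped between livers.

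**Figure D1:**
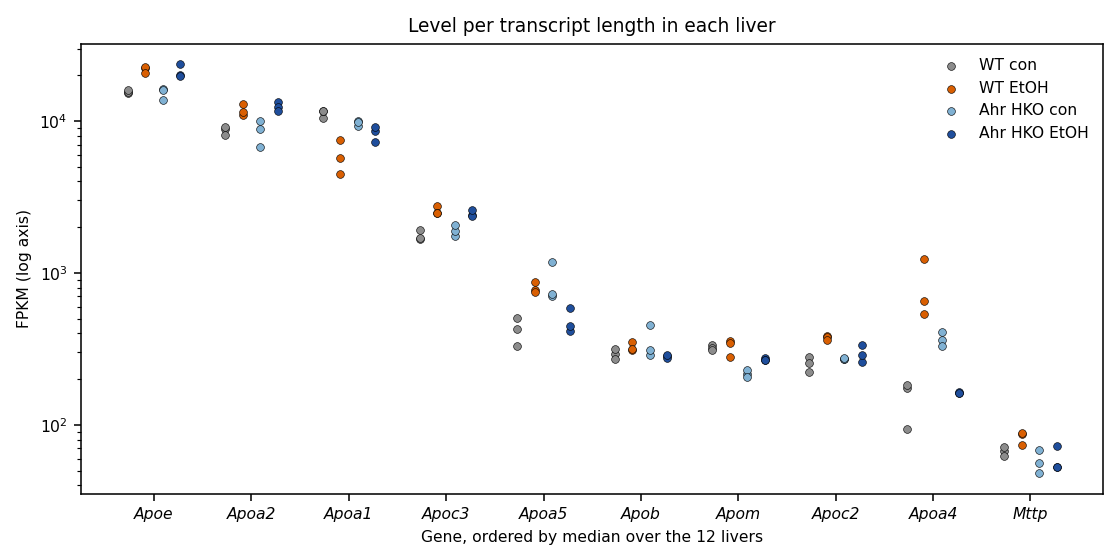
Level of the 10 genes per transcript length (FPKM, log axis) in each of the 12 livers, genes ordered by median and points coloured by group. *Apoe*, *Apoa2* and *Apoa1* lie highest, *Mttp* lies lowest, and *Apoa4* spreads from 93.2 to 1237.

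Ethanol changed *Apoa4*, *Apoa5* and *Apoa1* in WT livers. *Apoa4* rose 4.89-fold and *Apoa5* 1.71-fold, while *Apoa1* fell to 0.474 of its control level. Of the 10 genes, 2 were thus called higher and 1 lower, a call being an adjusted P under 0.05 over all 14038 genes, where 4.84% were called higher and 4.63% lower. The median log2 fold change was 0.31 over the 10 genes and 0.03 over all genes tested. The livers of the 2 groups did not overlap for 5 genes that were higher with ethanol (*Apoa4*, *Apoa5*, *Apoc2*, *Apoc3*, *Apoe*) and for *Apoa1*, which was lower. Among all genes, 16.2% were separated in this way upward and 16.6% downward. Beside this comparison, hepatocyte markers summed to 64392 to 75683 CPM in WT con and 76867 to 104520 CPM in WT EtOH, without overlap, though none of the 5 measured ones was called by edgeR (2 had an unadjusted P under 0.05, and DESeq2 called 2). Most of these sums was *Alb*, at 49729 to 60673 and 66322 to 90557 CPM. Of the 5 markers, 2 had a positive and 3 a negative log2 fold change, with 1 separated upward and 2 downward. Stellate cell markers summed to 302 to 380 CPM in WT con and 374 to 474 CPM in WT EtOH, and 2 of 6 were called higher, as was 1 of the 5 other leukocyte markers. The part of these marker values in the result was not tested.

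In *Ahr* HKO livers, ethanol moved *Apoa4* the other way, to 0.468 of its control level, and raised *Apom* by 0.38 on the log2 scale. These were the only calls among the 10 genes, 1 in each direction, against 14.9% of all genes called higher and 15.9% called lower. The median log2 fold change was 0.16 over the 10 genes and -0.02 over all genes. *Apoa2*, *Apoc3*, *Apoe* and *Apom* were separated upward (24.5% of all genes) and *Apoa4* and *Apoa5* downward (25.3%). Beside this comparison, all 6 Kupffer cell markers were called lower with ethanol in *Ahr* HKO livers, as were 2 of the 5 other leukocyte markers, 2 of the 5 sinusoidal endothelial markers and 1 of the 5 cholangiocyte markers. Endothelial markers summed to 208 to 231 CPM in *Ahr* HKO con and 146 to 164 CPM in *Ahr* HKO EtOH. Stellate cell markers summed to 279 to 293 and 376 to 426 CPM, and 2 of 6 were called higher. Hepatocyte markers summed to 59700 to 101430 CPM in *Ahr* HKO con and 90454 to 100600 CPM in *Ahr* HKO EtOH, and 2 of the 5 measured ones, *Ttr* and *Ass1*, were called higher. The part of these marker changes in the values here was not tested.

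On the control diet, *Apoa4* was 2.40-fold and *Apoa5* 2.06-fold higher in *Ahr* HKO than in WT livers, and *Apom* stood at 0.663 of the WT level. These 2 higher and 1 lower calls compare with 15.4% and 14.2% of all genes. The median log2 fold change was 0.02 over the 10 genes and 0.00 over all genes. Livers did not overlap for *Apoa4* and *Apoa5* (higher, 23.2% of all genes) nor for *Apom* and *Apoa1* (lower, 24.1%). The cholangiocyte markers summed to 40.2 to 132 CPM in WT con and 44.5 to 476 CPM in *Ahr* HKO con, with 1 of 5 called higher. Stellate cell markers summed to 302 to 380 and 279 to 293 CPM, without overlap, and 1 of 6 was called lower. Of the 5 endothelial markers 1 was called higher, and of the 5 other leukocyte markers 1 was called higher and 1 lower. Their part in the result was not tested. On the ethanol diet, *Apoa4* stood in *Ahr* HKO at 0.231 of the WT level and was the single call among the 10 genes, where 0.712% of all genes were called higher and 0.392% lower. *Apoa1* and *Apoa2* were separated upward (13.7% of all genes) and *Apoa4* and *Apoa5* downward (14.2%). The median log2 fold change was -0.03 over the 10 genes and -0.01 over all genes. No marker was called by edgeR in this comparison. An unadjusted P under 0.05 was reached by 5 of 6 Kupffer cell, 4 of 5 hepatocyte, 3 of 5 other leukocyte and 3 of 6 stellate cell markers and by 1 marker each of the endothelial, cholangiocyte and enterocyte lists. DESeq2 called 3, 4, 2, 1, 0, 1 and 1 markers of these lists in the same order. Their part was not tested.

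The interaction, the log2 ethanol response of *Ahr* HKO minus that of WT livers, was called for 3 of the 10 genes. It was negative for *Apoa4* and *Apoa5* and positive for *Apoa1*, while 11.2% of all genes had a positive and 11.1% a negative call. Among the markers, 3 of 6 Kupffer cell, 2 of 5 other leukocyte, 1 of 5 endothelial and 1 of 5 cholangiocyte genes had a negative call and 1 of 5 hepatocyte and 1 of 6 stellate cell genes a positive one, and their part was not tested. The pairwise comparisons share groups with each other, and the interaction uses all 12 livers, so they are not independent of one another.

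**Figure D2:**
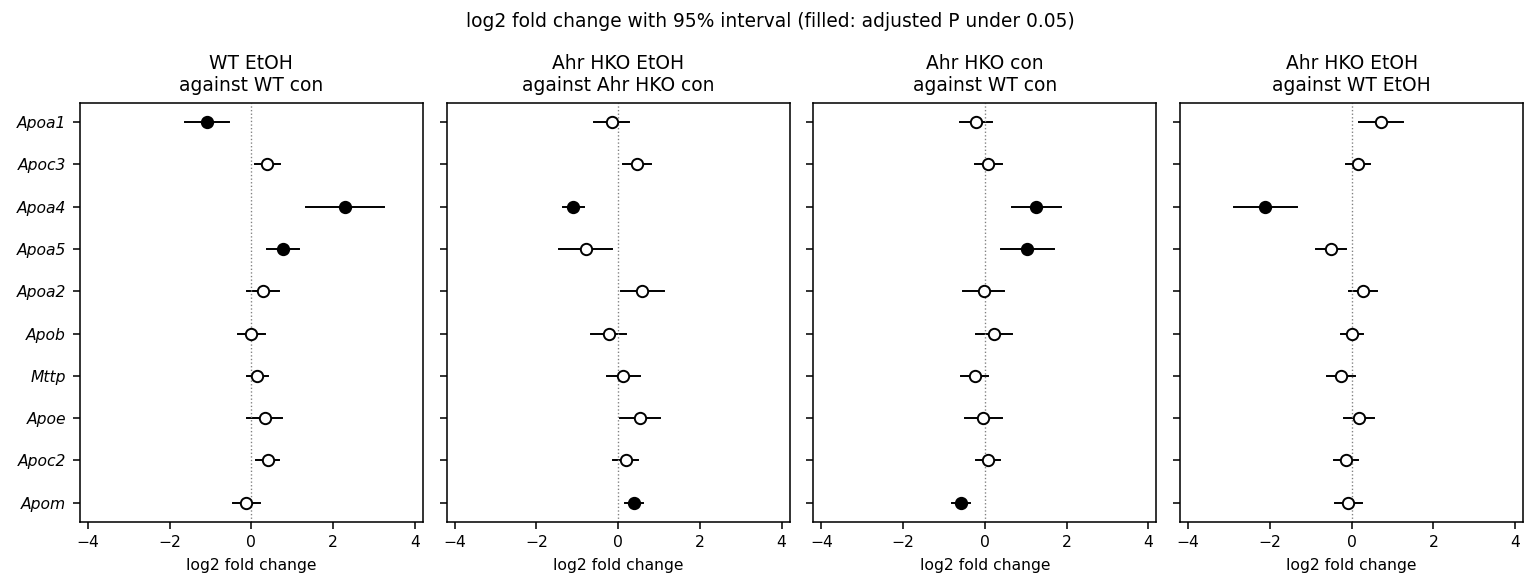
The log2 fold change of each gene with its 95% interval in the 4 pairwise comparisons, filled where the adjusted P was under 0.05. *Apoa4* is filled in all 4 panels and changes side, from 2.29 in WT EtOH against WT con to -1.10 in the same diet comparison of *Ahr* HKO livers.

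*Apoa4* encodes apolipoprotein A-IV, a lipid-binding protein of HDL and chylomicrons known to be low in the liver of mice on ordinary diets and higher in fatty livers. In WT con it stood at 164, 313 and 322 CPM in livers 1 to 3. In WT EtOH the values were 2068, 965 and 850 CPM. Every ethanol liver thus exceeded every control liver, and liver 1 of WT EtOH was more than 2-fold above its group mates. The *Ahr* HKO con livers held 635, 675 and 603 CPM and the *Ahr* HKO EtOH livers 292, 297 and 304 CPM. These groups lay tightly together, with coefficients of variation of 5.64% and 1.99%, and did not overlap. On the log2 scale the WT ethanol response was 2.29 (SE 0.41, adjusted P = 0.0189) and that of *Ahr* HKO livers -1.10 (SE 0.11, adjusted P = 0.00169). Their difference was -3.38 (SE 0.46, adjusted P = 0.000984). Leaving out any single liver, the difference ranged from -3.61 to -2.87 and kept its call. In the control diet comparison, the genotype difference was 1.26 (SE 0.25, adjusted P = 0.0101) and held without any single liver. Under ethanol it was -2.11 (SE 0.33, adjusted P = 0.0429). That call was lost without WT EtOH liver 2 or any *Ahr* HKO EtOH liver (adjusted P 0.0841 to 0.173), and the WT ethanol call was lost without any WT con liver (adjusted P 0.0586 to 0.0635). The lowest liver, WT con liver 1, was also the one low in *Saa1*, and without it the WT response was 2.04.

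*Apoa5*, a hepatic activator of lipoprotein lipase-mediated triglyceride clearance, showed the same directions as *Apoa4* with smaller sizes. It measured 876, 1152 and 1321 CPM in WT con and 1942, 1922 and 1792 CPM in WT EtOH. Each ethanol liver was above each control liver. *Ahr* HKO con livers held 1839, 1792 and 3242 CPM and *Ahr* HKO EtOH livers 1129, 1590 and 1242 CPM. The highest value was that of the *Ahr* HKO con liver with high *Alb*, and these groups did not overlap either. The log2 ethanol response was 0.77 in WT (SE 0.17, adjusted P = 0.0344) and -0.80 in *Ahr* HKO livers, where it missed the threshold (SE 0.28, adjusted P = 0.0650) and was -0.45 without *Ahr* HKO con liver 3 (adjusted P = 0.112). Of 11 alternative fits with all livers, 9 called the WT response and 6 that of *Ahr* HKO livers. A single fit of all 12 libraries called the *Ahr* HKO response (adjusted P = 0.0233) but not that of WT (adjusted P = 0.0658). The difference of -1.55 was called (SE 0.34, adjusted P = 0.00886) and ranged from -1.71 to -1.22 with any single liver left out, always called. On the control diet the genotype difference was 1.04 (SE 0.28, adjusted P = 0.0286). Without *Ahr* HKO con liver 3 it was 0.70 and still called (adjusted P = 0.0362), but without any WT con liver it was not (adjusted P 0.0528 to 0.0873). The WT ethanol call was lost whichever of the 6 livers was left out (adjusted P 0.0566 to 0.106).

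*Apoa1*, the backbone of HDL and the activator of cholesterol esterification by LCAT, went against its neighbours. WT con livers held 10849, 12246 and 12110 CPM and WT EtOH livers 5655, 3918 and 6993 CPM. No ethanol liver reached the lowest control liver, and the spread widened from an SD of 770 to one of 1542 CPM. Values of *Ahr* HKO livers were 10404, 9063 and 10738 CPM on the control diet and 7807, 9214 and 10102 CPM with ethanol, and the groups overlapped. The log2 ethanol response was -1.08 in WT (SE 0.23, adjusted P = 0.0327) and -0.16 in *Ahr* HKO livers (95% interval -0.59 to 0.27, adjusted P = 0.546). The difference between them was 0.93 (SE 0.29, adjusted P = 0.0389). Both calls were near the threshold. With limma on quantile-normalized log2(FPKM + 1), neither was kept. The WT response was then -0.31 (adjusted P = 0.142) and the difference 0.17 (adjusted P = 0.403). The WT call was lost without any liver except WT EtOH liver 3 (adjusted P 0.0542 to 0.101). That of the difference was lost in 9 of 12 fits (adjusted P 0.0556 to 0.0932) and kept without WT EtOH liver 3, *Ahr* HKO con liver 3 or *Ahr* HKO EtOH liver 1. With ethanol, *Apoa1* was 0.72 higher in *Ahr* HKO than in WT livers on the log2 scale, without overlap but also without a call (SE 0.23, adjusted P = 0.145). DESeq2 alone of 11 alternative fits with all livers called it (adjusted P = 0.0178).

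*Apoc3*, an inhibitor of triglyceride clearance, lies between *Apoa1* and *Apoa4* and followed neither. WT livers held 944, 964 and 1067 CPM on the control diet and 1464, 1160 and 1247 CPM with ethanol. *Ahr* HKO livers held 962, 983 and 1192 CPM and 1400, 1362 and 1545 CPM. Ethanol livers lay above control livers in both genotypes. Neither log2 response of 0.39 (SE 0.13, adjusted P = 0.103) and 0.46 (SE 0.15, adjusted P = 0.0512) passed the threshold. The second was called without *Ahr* HKO con liver 3 (0.57, adjusted P = 0.0234). Of 11 alternative fits with all livers, 5 called the first and 7 the second. DESeq2 called both (adjusted P = 0.0192 and 0.00416). The interaction was 0.08, with a 95% interval of -0.33 to 0.48, which leaves out the point estimates of *Apoa4*, *Apoa5* and *Apoa1*. The interval of *Apoa1* itself, 0.30 to 1.56, overlaps that of *Apoc3*.

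**Figure D3:**
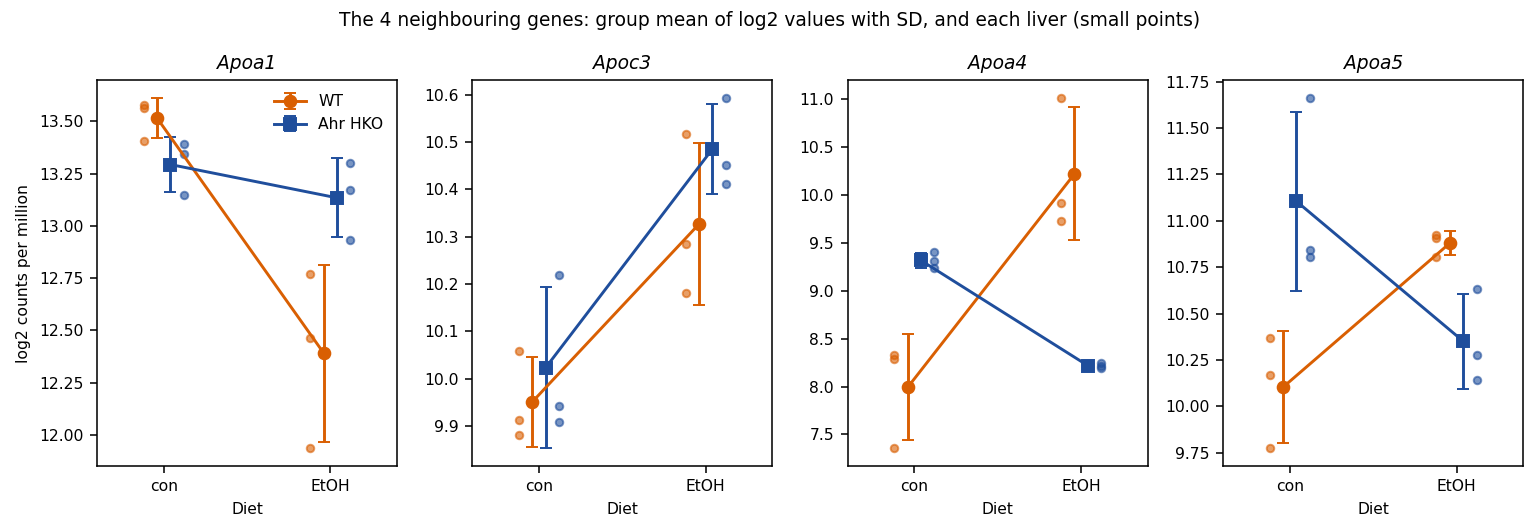
The 4 neighbouring genes of chromosome 9 on the log2 CPM scale by diet, lines joining the group means (bars, SD of log2 values, n = 3) of WT and *Ahr* HKO livers. The lines cross for *Apoa4* and *Apoa5*, upward in WT and downward in *Ahr* HKO, part for *Apoa1*, which is lower in WT EtOH, and slope alike for *Apoc3*.

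The ratios between neighbours were set side by side within each liver. The FPKM ratio of *Apoa4* to *Apoa1* was 0.00895, 0.0152 and 0.0158 in the WT con livers. It was 0.217, 0.146 and 0.0721 in WT EtOH. In *Ahr* HKO con livers it was 0.0333 to 0.0442 and with ethanol 0.0179 to 0.0222. The ratio was thus higher in every WT EtOH liver than in any other liver. The ratio of *Apoa5* to *Apoc3*, genes that act in opposite directions on triglyceride clearance, was 0.239 ± 0.0366 in WT con, 0.312 ± 0.0357 in WT EtOH, 0.453 ± 0.103 in *Ahr* HKO con and 0.197 ± 0.0431 in *Ahr* HKO EtOH. It was highest in the *Ahr* HKO con livers, 0.384 to 0.572, which no liver of another group reached.

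Among the HDL genes away from chromosome 9, *Apom*, the carrier of sphingosine-1-phosphate on HDL, differed between genotypes on the control diet. It measured 253, 247 and 234 CPM in WT con and 162, 162 and 162 CPM in *Ahr* HKO con. The *Ahr* HKO con livers were nearly identical, with an SD of 0.406 CPM, and lay below all WT livers. With ethanol, *Ahr* HKO livers held 213, 205 and 214 CPM, between the 2 control groups. WT EtOH livers held 257, 177 and 235 CPM and overlapped WT con. The genotype difference on the control diet was -0.59 on the log2 scale (SE 0.09, adjusted P = 0.00450) and kept its call without any single liver. Under ethanol it was -0.08 (95% interval -0.40 to 0.25, adjusted P = 0.783), and the livers overlapped. The ethanol response of *Ahr* HKO livers was 0.38 (SE 0.09, adjusted P = 0.0228). It lost the call without *Ahr* HKO con liver 1 or any *Ahr* HKO EtOH liver (adjusted P 0.0570 to 0.0797), and kept it in 8 of 11 alternative fits with all livers. The WT response was -0.12 (95% interval -0.45 to 0.20). The interaction of 0.52 narrowly missed the threshold (SE 0.17, adjusted P = 0.0508) and passed it without WT EtOH liver 1 (0.63, adjusted P = 0.0209). It was also called in 3 of 9 alternative fits with all livers.

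*Apoa2*, the second structural HDL protein, held 4836, 5076 and 4442 CPM in WT con and 6761, 5002 and 5638 CPM in WT EtOH, which overlapped. It held 4847, 3437 and 5708 CPM in *Ahr* HKO con and 7517, 6907 and 6769 CPM in *Ahr* HKO EtOH. In this genotype every ethanol liver lay above every control liver. The log2 responses were 0.29 (SE 0.16, adjusted P = 0.312) and 0.60 (SE 0.22, adjusted P = 0.0793), the latter being called without *Ahr* HKO con liver 3 (0.78, adjusted P = 0.0331). Alternative fits with all livers, 11 in number, called the first response in 2 cases and the second in 4. The interaction was 0.32, with an interval of -0.26 to 0.91.

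*Apoe*, the most abundant of the 10 and a ligand of hepatic uptake receptors, made up 46.8% ± 0.982 of the counts of these genes in WT con, 55.8% ± 2.34 in WT EtOH, 45.6% ± 2.54 in *Ahr* HKO con and 55.0% ± 2.12 in *Ahr* HKO EtOH. It stood at 20517, 21241 and 21396 CPM in WT con and 28455, 25277 and 25062 CPM in WT EtOH. *Ahr* HKO livers held 21742, 17188 and 22504 CPM on the control diet and 27954, 32378 and 28341 CPM with ethanol. Ethanol livers exceeded control livers in both genotypes, by 0.33 in WT (SE 0.18, adjusted P = 0.298) and 0.53 in *Ahr* HKO on the log2 scale (SE 0.21, adjusted P = 0.0922), without passing the edgeR test. The WT response was called in 4 and that of *Ahr* HKO in 5 of 11 alternative fits with all livers, DESeq2 among them (adjusted P = 0.00749 and 0.00306). Macrophages are another known source of *Apoe*. The Kupffer cell markers, given above, were called lower in *Ahr* HKO EtOH than in *Ahr* HKO con, and the part of these cells in the *Apoe* values was not tested.

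*Apoc2*, the cofactor of lipoprotein lipase, held 170, 219 and 196 CPM in WT con and 278, 242 and 248 CPM in WT EtOH, where every liver was higher, but the test was not passed (log2 0.40, SE 0.12, adjusted P = 0.0788). This response was called in 4 of 11 alternative fits with all livers. In *Ahr* HKO livers it held 204, 195 and 219 CPM on the control diet and 205, 262 and 235 CPM with ethanol, and the groups overlapped (log2 0.18, 95% interval -0.12 to 0.49). The interaction was -0.21, with an interval of -0.59 to 0.17. The readthrough transcript of *Apoc4* and *Apoc2*, counted on its own, reached at most 13.3 CPM in any liver.

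Of the assembly genes proper, neither was called. *Apob* held 4278, 4723 and 3966 CPM in WT con and 4338, 4318 and 4166 CPM in WT EtOH. It held 4203, 6191 and 4720 CPM in *Ahr* HKO con and 4265, 4146 and 4485 CPM in *Ahr* HKO EtOH. All groups overlapped one another, and *Ahr* HKO con liver 2 was the highest. The log2 ethanol response was 0.00 in WT (95% interval -0.33 to 0.33) and -0.23 in *Ahr* HKO livers (-0.65 to 0.20). *Mttp*, whose protein lipidates apolipoprotein B, held 282, 305 and 262 CPM in WT con, 291, 304 and 335 CPM in WT EtOH, 199, 268 and 243 CPM in *Ahr* HKO con and 314, 226 and 238 CPM in *Ahr* HKO EtOH. Its log2 ethanol response was 0.14 in WT (95% interval -0.11 to 0.40) and 0.13 in *Ahr* HKO livers (-0.27 to 0.53), and the interaction was 0.00 (-0.46 to 0.45). These intervals leave out changes of the size seen for *Apoa4*. Neither gene was called in any comparison or alternative run here.

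**Figure D4:**
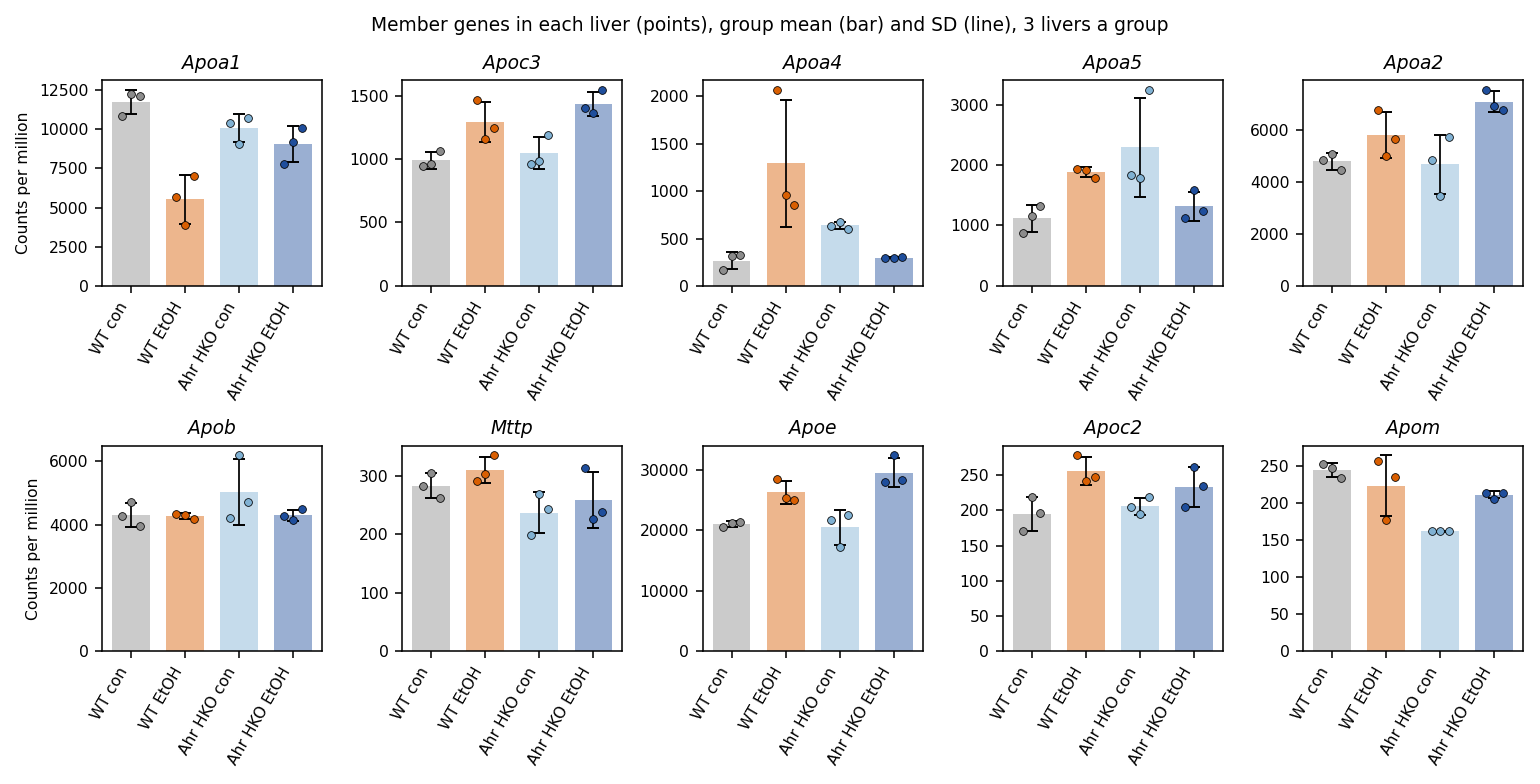
CPM of each gene in every liver (points), with the group mean (bar, from 0) and SD (line, n = 3), each panel on its own axis. *Apoa4* and *Apoa5* are high in WT EtOH and *Ahr* HKO con, *Apoa1* is lowest in WT EtOH, and *Apom* is low in *Ahr* HKO con.

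Counts of calls in this and the following gene lists compare with these shares of all genes. For ethanol, 4.84% were called higher and 4.63% lower in WT and 14.9% and 15.9% in *Ahr* HKO livers. For genotype on the control diet these were 15.4% and 14.2%, and for the interaction 11.2% were positive and 11.1% negative. Of 18 further apolipoproteins and lipoprotein-bound proteins, 16 could be tested. In WT livers 1 of them, *Saa4*, a constitutive HDL protein of the serum amyloid A family, fell with ethanol (log2 -1.09, SE 0.19, adjusted P = 0.0182). Of the same 16, 5 rose and 5 fell in *Ahr* HKO livers. *Saa1* (-5.39, adjusted P = 0.000918) and *Saa2* (-7.25, adjusted P = 0.000982), acute phase HDL proteins, fell, and *Apol7a* rose (1.61, adjusted P = 0.00433). *Saa1* ranged from 1772 to 3254 CPM in the *Ahr* HKO con livers and from 54.2 to 77.6 in *Ahr* HKO EtOH, and *Saa1* and *Saa2* are near-identical copies whose reads may be divided unevenly. In WT livers, *Saa1* was at most 82.3 CPM in the ethanol livers and 31.5 CPM in control liver 1. On the control diet, 1 gene was higher and 3 lower in *Ahr* HKO than in WT, with the smallest adjusted P for *Apol7a* (-1.84, adjusted P = 0.00102), *Apol9b* (-1.26, adjusted P = 0.0129) and *Apol9a* (-1.16, adjusted P = 0.0258), the last 2 being a near-identical pair. Interactions were called for 3 genes, all positive, *Apol7a* (1.54, adjusted P = 0.00437), *Apol9b* (1.20, adjusted P = 0.0390) and *Apoc4* (0.56, adjusted P = 0.0448), a neighbour of *Apoc2* and *Apoe*.

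Of 28 genes of lipoprotein assembly and secretion, 2 rose with ethanol in WT livers, *Tm6sf2*, which promotes VLDL lipidation (1.34, SE 0.17, adjusted P = 0.00657), and *Ces1d*, a carboxylesterase (1.46, SE 0.33, adjusted P = 0.0385). With ethanol in *Ahr* HKO livers 9 rose and 6 fell, among them *Plin2*, a lipid droplet coat protein (-1.21, adjusted P = 0.00323), *Ces1d* (2.09, adjusted P = 0.00328) and *Mia3*, a cargo receptor for large secretory cargo (0.82, adjusted P = 0.00378). Between genotypes on the control diet, 9 were higher and 7 lower in *Ahr* HKO, led by the coat subunit *Sec24d* (1.24, adjusted P = 0.00156), the phospholipid remodelling enzyme *Lpcat3* (-0.94, adjusted P = 0.00159) and the sorting receptor *Sort1* (-2.65, adjusted P = 0.00162). Interactions were called for 10, 7 positive and 3 negative, including *Derl1* (-0.75, adjusted P = 0.00189), *Sort1* (2.50, adjusted P = 0.00208) and *Plin2* (-1.56, adjusted P = 0.00736).

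Among 18 lipoprotein receptors, lipases and their regulators, 5 rose and 1 fell with ethanol in WT livers, including the fatty acid transporter *Cd36* (1.94, adjusted P = 0.00305), the VLDL receptor *Vldlr* (3.30, adjusted P = 0.00551) and the remnant receptor *Lrp1* (-0.73, adjusted P = 0.0122). In *Ahr* HKO livers 7 rose and 2 fell, among them the lipase maturation factor *Lmf1* (0.69, adjusted P = 0.00414) and *Lrpap1* (0.37, adjusted P = 0.0212). On the control diet 3 were higher and 5 lower in *Ahr* HKO, with *Angptl4*, a lipase inhibitor, at 1.20 (adjusted P = 0.00254) and *Sdc1*, a remnant-binding proteoglycan, at 0.80 (adjusted P = 0.0103). Interactions were positive for 3 and negative for 1, among them *Lmf1* (0.80, adjusted P = 0.00558) and *Cd36* (-1.48, adjusted P = 0.0165).

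Of 12 genes of HDL maturation and cholesterol efflux, 1 rose and 1 fell with ethanol in WT livers, the biliary sterol exporter *Abcg5* (0.47, adjusted P = 0.0266) and *Abca1*, which lipidates apolipoprotein A-I (-0.46, adjusted P = 0.0435). The ethanol response of *Ahr* HKO livers comprised 2 that rose and 4 that fell, with *Abcg8* at 1.33 (adjusted P = 0.00285), *Abca1* at -1.41 (adjusted P = 0.00471) and *Abcg5* at 1.08 (adjusted P = 0.00471). On the control diet 2 were higher and 4 lower in *Ahr* HKO, and the same 3 genes had the smallest P, *Abcg8* at -1.64 (adjusted P = 0.00163), *Abcg5* at -1.06 (adjusted P = 0.00303) and *Abca1* at 1.19 (adjusted P = 0.00415). Interactions were positive for 4 and negative for 1, with *Abcg8* at 1.24 (adjusted P = 0.00419), *Abca1* at -0.94 (adjusted P = 0.0199) and the endosomal cholesterol exporter *Npc1* at 0.90 (adjusted P = 0.0254).

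Of 30 transcription factors and coregulators that act on apolipoprotein genes, 2 rose and 1 fell with ethanol in WT livers, *Srebf1* (-1.26, adjusted P = 0.0245), *Foxo1* (0.38, adjusted P = 0.0405) and *Ppargc1a* (0.60, adjusted P = 0.0417). In *Ahr* HKO livers 10 rose and 4 fell, among them the nuclear receptor *Esrra* (1.17, adjusted P = 0.00149) and the coactivator *Ppargc1a* (1.51, adjusted P = 0.00182). On the control diet 5 were higher and 8 lower in *Ahr* HKO, with *Srebf1* at -2.04 (adjusted P = 0.000603), *Esrra* at -1.14 (adjusted P = 0.00159) and *Nr2f2* at -0.97 (adjusted P = 0.00285). The 7 called interactions were all positive and included *Esrra* (1.06, adjusted P = 0.00150), *Ppargc1b* (2.61, adjusted P = 0.00322) and *Srebf1* (2.92, adjusted P = 0.00487).

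In the genotype comparison under ethanol, *Saa4* (1.23, SE 0.13, adjusted P = 0.0173) was the only call by edgeR among the 104 tested genes of these 5 lists, where 28 had an unadjusted P under 0.05 and DESeq2 called 16. Over all genes, edgeR called 0.712% higher and 0.392% lower.

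Genes outside the 10 whose log2 CPM over the 12 livers was among the most like that of *Apoa4*, the gene with the widest range of group means, included *Tomm20* (Pearson r 0.96), *Btbd19* (0.93), *Arhgef2* (0.92) and *Rfk* (0.91). The livers share their groups, so this describes the pattern and carries no test.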

How the data were processed

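Expression of 10 genes was followed in 12 mouse livers, 3 in each of 4 groups. Per the study's methods, the authors made TruSeq Stranded mRNA libraries and sequenced them paired-end on an Illumina NovaSeq. The submitters' processing notes name FastQC 0.11.7, Trimmomatic 0.38, HISAT2 2.1.0, Bowtie2 2.3.4.1, StringTie 1.3.4d and the build mm10. The authors deposited whole-number counts, FPKM and TPM per gene in 1 table. TPM was not used.

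Genes were kept by edgeR's filterByExpr over the 4 groups, which left 14038. Pairs of groups (6 libraries) and the interaction (12 libraries) were tested with edgeR 4.0.16 (quasi-likelihood F test, two-sided, TMM factors over the libraries of the fit) and adjusted over all genes by Benjamini-Hochberg; a call is an adjusted P under 0.05. CPM used TMM-scaled totals, and 3 counts were worth 0.0425 to 0.0676 CPM. Alternatives used DESeq2 1.42.0, limma 3.58.1 on log2(FPKM + 1) or log2(FPKM + 0.1), other scalings and filters, and each liver left out. Scripts were tested on simulated data. Among 66 pairs, no libraries were identical. Sequences are RefSeq's (GRCm38.p6) and positions GENCODE's.

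The 10 genes and the related lists were chosen with earlier results of these data known. From each list, at most 3 genes per comparison with the smallest adjusted P were named, and some that met this rule are not reported here; hepatocyte, Kupffer cell, leukocyte, stellate cell, sinusoidal endothelial, cholangiocyte and enterocyte markers were summed. *Saa1*, the marker genes and the livers that stood apart were named after their values were seen. The TMM factors over all 12 libraries were an alternative added after seeing the data. Replicate numbers in the labels were not taken to pair livers: of 18 same-numbered pairs, 2 had a correlation of deviations over 0.1 (range -0.13 to 0.28).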

Additional observations from a re-analysis of the deposited data

Results flagged for a closer look

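The ethanol response differed between genotypes for 3 of the 10 genes by the interaction test itself, in edgeR's fit over all 12 livers. Over all genes, 11.2% had a positive and 11.1% a negative call. For *Apoa4* the log2 difference was -3.38, for *Apoa5* -1.55 and for *Apoa1* 0.93. With a liver left out, the call of *Apoa1* was lost in 9 of 12 fits, while *Apoa4* and *Apoa5* kept theirs. The call of *Apoa1* was also lost with limma on quantile-normalized FPKM (0.17, adjusted P = 0.403), where *Apoa4* and *Apoa5* again kept theirs. *Apoa4* and *Apoa5* were higher with ethanol in 3 of 3 WT livers than in any WT con liver and lower in 3 of 3 *Ahr* HKO livers than in any *Ahr* HKO con liver. Such separation held for 16.2% of all genes upward in WT and 25.3% downward in *Ahr* HKO livers. Outlying livers were not tested for, since no group held more than 3.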

How the results depend on the processing

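With any single liver left out, 0 to 2 of the 10 genes were called for ethanol in WT (3 with all livers), 1 to 4 for ethanol in *Ahr* HKO (2) and 0 to 1 for genotype under ethanol (1), the 4 being without *Ahr* HKO con liver 3. DESeq2 called 6, 6 and 3 in these comparisons, library totals without factors 5 for ethanol in WT and 6 in *Ahr* HKO, limma on log2(FPKM + 1) 7 and 6, limma on log2(FPKM + 0.1) 6 and 4, and all 12 libraries in a single fit 6 in *Ahr* HKO. Quantile-normalized FPKM gave 5 for ethanol in WT and 0 for genotype under ethanol. It sets genes of equal rank to an equal value, so the values of the top-ranked *Apoe*, *Apoa2* and *Apoa1* follow their rank in each library alone. The genes called for genotype on the control diet and for the interaction stayed within 1.5 times of 3 throughout, and the cause of the other shifts was not tested. Over all 14038 genes, DESeq2 called 2335 for ethanol in WT, 5139 in *Ahr* HKO and 1512 for genotype under ethanol (edgeR 1329, 4322 and 155). Leaving out a liver gave 367 to 1026, 2588 to 3792 and 7 to 189. Library totals called 1628 for ethanol in WT and 4156 in *Ahr* HKO. For limma these were 2037 and 4189 on log2(FPKM + 1) and 1391 and 3939 on log2(FPKM + 0.1). All 12 libraries in a single fit called 5093 in *Ahr* HKO. Quantile-normalized FPKM called 1325 for ethanol in WT and 113 for genotype under ethanol. Library totals moved the median of all genes from 0.03 to 0.15 for ethanol in WT, from -0.01 to -0.20 for genotype under ethanol and from -0.03 to -0.23 for the interaction.

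Fitted with the replicate number as a block (replicate block), 0 of the 10 genes were called for ethanol in WT and 1 in *Ahr* HKO. None of the 10 lost a call in the other comparisons. Among all genes the block gave 517 and 3005 calls for ethanol in WT and *Ahr* HKO, against 1329 and 4322. Calls also fell for genotype on the control diet (2999 against 4161) and the interaction (2745 against 3137), but rose for genotype under ethanol (245 against 155). A liver correlated best with its own number in 10 of 36 checks. The 2 same-numbered pairs over 0.1 were numbers 1 (0.28) and 2 (0.20) of WT EtOH and *Ahr* HKO EtOH. Within each group the numbers follow the order of the codes in the submitters' library names, and livers of the same number often carry different codes. These checks cannot decide whether the numbers stand for a pairing or a batch, which the sources used here do not give.

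Signs turned only for genes without a call in the reported fits, at log2 values near 0 except under quantile normalization. For ethanol in WT, *Apob* came to 0.12 with library totals, 0.0004 with the block and 0.16 with either FPKM pseudocount, and *Apom* to 0.018 with either. For genotype under ethanol, *Apob*, *Apoc3* and *Apoe* came to -0.19, -0.036 and -0.021 with library totals and to -0.21, -0.062 and -0.049 with either pseudocount, and *Apob* to -0.039 with upper-quartile factors. For the interaction, *Mttp* came to 0.017 with upper-quartile factors, *Apoc3* to -0.11 with library totals and -0.16 with either pseudocount, and *Apoe* to -0.022 with either. Quantile normalization gave -0.0081 (*Apoc2*) and -0.059 (*Mttp*) for ethanol in *Ahr* HKO; 0.27 (*Apoa2*), -0.029 (*Apoc3*) and 0.63 (*Apoe*, called) for genotype on the control diet; -0.32 (*Apoa2*), -0.070 (*Apob*) and -0.65 (*Apoc3*) for genotype under ethanol; and -0.59 (*Apoa2*), -0.62 (*Apoc3*) and -0.63 (*Apoe*, called) for the interaction. With a liver left out, ethanol in WT gave -0.064 to 0.067 for *Apob* and -0.26 to 0.0079 for *Apom*, ethanol in *Ahr* HKO -0.030 to 0.22 for *Mttp*, genotype on the control diet -0.0074 to 0.17 for *Apoc2*, -0.21 to 0.15 for *Apoa2*, -0.11 to 0.078 for *Apoe* and -0.028 to 0.14 for *Apoc3*, genotype under ethanol -0.20 to 0.036 for *Apom* and -0.022 to 0.040 for *Apob*, and the interaction -0.16 to 0.10 for *Mttp*.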
